A study of Mus musculus with 6 samples.

Results

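The genes described here are 10 markers of epithelial identity, taken by name from a table of 23726 mouse gene models: Cdh1, Cdh3, Epcam, Esrp1, Esrp2, Rab25, Grhl2, Ovol2, Elf3 and Ehf. All 10 were found, and each had a count in every library. The 6 libraries were 1 biopsy of healthy whole skin, biopsies of 2 distinct papillomas and 1 tumour raised with DMBA (a mutagen) and TPA (a tumour promoter), and 2 populations of skin cells from such tumours, mSCC-20 (non-tumorigenic, per the labels) and mSCC-38 (tumorigenic). The carcinogen and promoter treatment is shared by every group except healthy skin. Papilloma is the only group with more than 1 library, and the labels used here give no strain, age or number of mice, and do not say whether both cultures came from the same tumour.

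Epithelial cells hold together through cadherins, membrane proteins that bind their like on the next cell and are anchored to actin by catenins. Their identity is kept by a small set of transcription factors, among them the grainyhead and Ovo families, and by the splicing regulators Esrp1 and Esrp2, which impose the epithelial forms of many transcripts. In carcinoma this programme can be lost in an epithelial-to-mesenchymal transition, in which repressors of the Zeb, Snail and Twist families are known to silence Cdh1. In epidermis, basal keratinocytes carry both E-cadherin (Cdh1) and P-cadherin (Cdh3), and the ETS factors Elf3 and Ehf are known from differentiating and glandular epithelia.

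Total counts ran from 25140489 in papilloma 1 to 42992597 in the tumour. Values are CPM (counts per 1000000 counts, scaled with TMM factors from 0.848 to 1.20 over the 6 libraries), and intervals are exact 95% Clopper-Pearson intervals that cover counting error only. The RNA integrity number in the labels was lowest in skin (7.5) and between 8.2 and 9.6 elsewhere. Keratinocyte markers, 10 genes of basal and stratified epidermis, summed to 13415 CPM in skin, 53494 and 40567 in the papillomas, 40620 in the tumour, 19378 in mSCC-20 and 12499 in mSCC-38, and none of them was at 0 in any library. Fibroblast markers, 7 genes, summed to between 3294 and 4922 CPM in the biopsies, 12.8 in mSCC-20 and 212 in mSCC-38, and endothelial markers to at most 3.89 CPM in the cultures. In whole biopsies, fewer cells of a type and less RNA per cell cannot be told apart.

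In the tumorigenic culture mSCC-38, 9 of the 10 genes were lower than in mSCC-20, and 7 passed the rule of size used for pairs of single libraries, a 4-fold difference or more in a gene that reaches 10 CPM in the higher of the pair. Of all 9797 genes at that level, 3.28% were lower and 6.84% higher by the rule. P-cadherin ran the other way and was higher in mSCC-38. For the same 9 genes mSCC-38 was the lowest of the 6 libraries. Both sides are single libraries, so there is no replicate check and no p-value, and tumorigenicity and any other difference between the cultures cannot be told apart. The nearest measure of replicate spread is the papilloma pair, whose values differed by 1.01-fold (Elf3) to 1.32-fold (Ehf) among the 10 genes. By the rule of size 0 of 9 members at that level differed between the papillomas, where 1.09% of genes were higher and 0.0904% lower in papilloma 2.

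**Figure D1:**
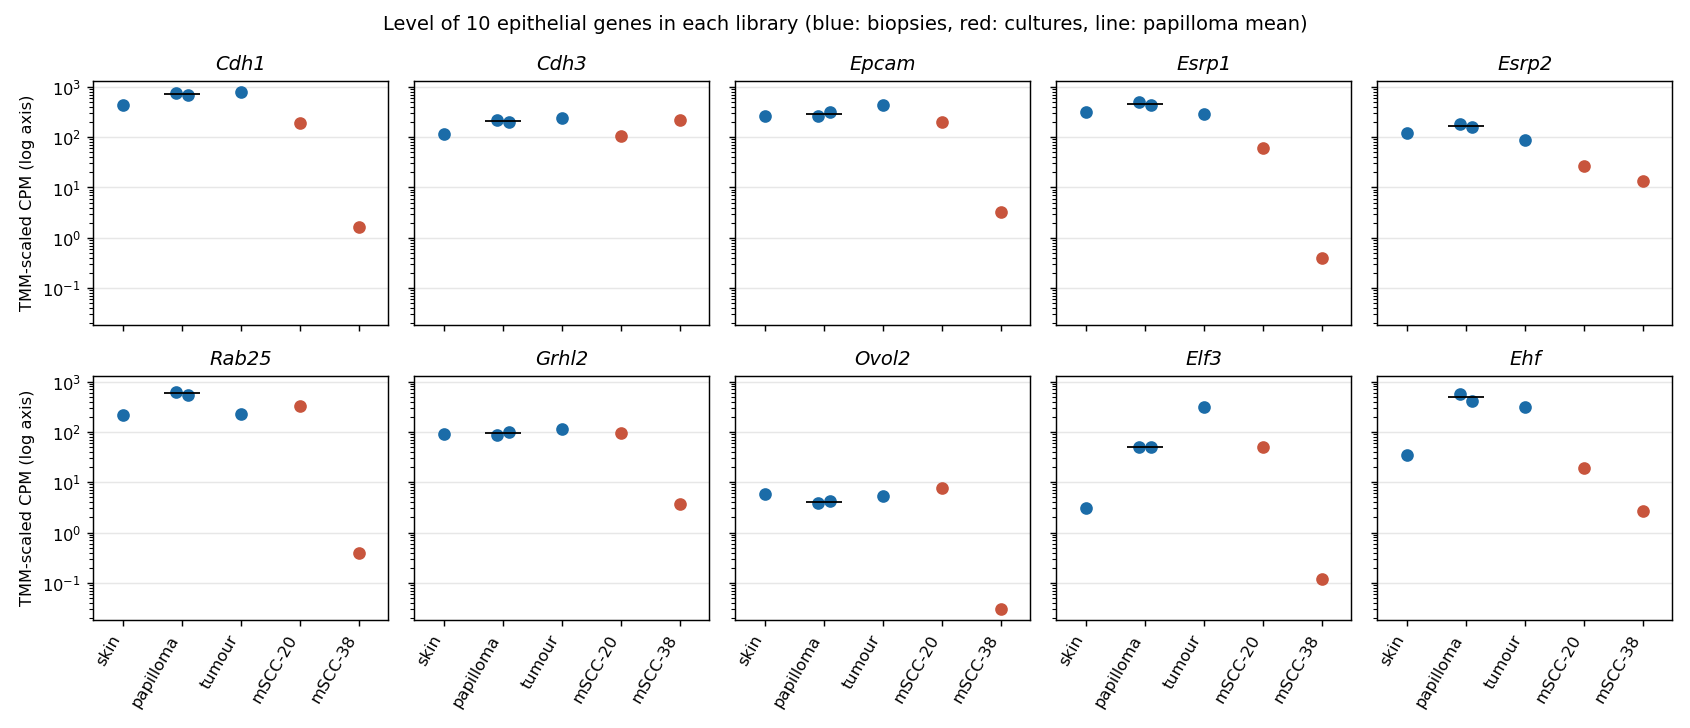
TMM-scaled CPM of each gene on a log axis, 1 point per library, with biopsies in blue, cultures in red and a line at the mean of the 2 papillomas. In 9 of 10 panels the mSCC-38 point is the lowest; in the Cdh3 panel it stands at 224 CPM, beside the papillomas and the tumour.

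Cdh1 (chromosome 8, 109127268 to 109194146, mm9), the gene of E-cadherin, had 430.3 CPM in skin, 739.9 and 695 CPM in the papillomas (1 before 2 throughout), 784 CPM in the tumour, 195 CPM in mSCC-20 and 1.63 CPM in mSCC-38. Both cultures lay under every biopsy, and mSCC-38 under all else. The 54 counts of mSCC-38 against 6012 of mSCC-20 gave a level 119.8-fold lower (interval 91.7 to 159.7). Cdh3 (chromosome 8, 109034791 to 109080808), the gene of P-cadherin, had 115 CPM in skin, 215 and 201 CPM in the papillomas, 243 CPM in the tumour, 105 CPM in mSCC-20 and 224 CPM in mSCC-38. The mSCC-38 level was therefore 2.13-fold that of mSCC-20 (interval 2.05 to 2.22), within the range of the papillomas and the tumour. Epcam (chromosome 17, 88035319 to 88050467), which encodes an epithelial adhesion molecule of the cell membrane, had 266 CPM in skin, 266 and 319 CPM in the papillomas, 429 CPM in the tumour, 196 CPM in mSCC-20 and 3.26 CPM in mSCC-38. The last value was 60.1-fold lower than in mSCC-20 (interval 49.7 to 73.4), and the other 5 libraries lay within 2.19-fold of each other.

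The 2 cadherin genes are neighbours in the same orientation. Only 46.5 kb separate the end of Cdh3 from the start of Cdh1, with 1 gene model between them (1110028F18Rik, at 3 counts in mSCC-20 and 0 in mSCC-38). Within 250 kb of Cdh1 the table lists 8 gene models. Tmco7, the next gene beyond Cdh1, had 38.6 CPM in mSCC-20 and 34.1 CPM in mSCC-38, a ratio of 0.882 (interval 0.813 to 0.958). Has3, which encodes a hyaluronan synthase, had 0.942 and 32.4 CPM, a ratio of 34.4 (interval 23.8 to 51.6). Chtf8, at 144 and 146 CPM, had a ratio whose interval included 1. Apart from 1110028F18Rik, Cdh1 had by far the lowest ratio of the 8 models; the next lowest were 0.411 for Cirh1a and 0.526 for Zfp90.

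Of the splicing regulators, Esrp1 (chromosome 4, 11259185 to 11313930) had 317 CPM in skin, 495 and 438 CPM in the papillomas, 289 CPM in the tumour, 60.8 CPM in mSCC-20 and 0.392 CPM in mSCC-38. The 13 counts of mSCC-38 were 155-fold lower than in mSCC-20 (interval 90.5 to 292). Its paralog Esrp2 (chromosome 8, 108655083 to 108660874) had 121 CPM in skin, 179 and 161 CPM in the papillomas, 88.7 CPM in the tumour, 27.0 CPM in mSCC-20 and 13.5 CPM in mSCC-38. Both paralogs were highest in the papillomas and lowest in mSCC-38, but the step from mSCC-20 to mSCC-38 was 1.99-fold (interval 1.77 to 2.24) for Esrp2, which did not pass the rule of size. Esrp2 overlaps the model 1810019D21Rik on the other strand, at 145 and 28 counts in mSCC-20 and mSCC-38, and whether the counting used strand is not given in the sources used here.

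Rab25 (chromosome 3, 88345951 to 88352201), a small GTPase of recycling endosomes in epithelial cells, had 214 CPM in skin, 629 and 535 CPM in the papillomas, 228 CPM in the tumour, 325 CPM in mSCC-20 and 0.392 CPM in mSCC-38. The level in mSCC-38 was 828-fold lower than in mSCC-20 (interval 484 to 1557), from 13 counts against 10009, an interval that overlaps those of Elf3 and Ovol2. Per kb of gene model it was the most abundant of the 10 in each of the other 5 libraries, at 308 CPM per kb in mSCC-20, and it ranked 6 in mSCC-38, where Cdh3 came first at 56.4 CPM per kb and Esrp2 second at 5.10.

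Among the transcription factors, Grhl2 (chromosome 15, 37162791 to 37293323), a grainyhead factor known to activate Cdh1 and other junction genes, had 90.2 CPM in skin, 87.5 and 98.2 CPM in the papillomas, 114 CPM in the tumour, 95.4 CPM in mSCC-20 and 3.65 CPM in mSCC-38. Its biopsies and mSCC-20 lay close together, and mSCC-38 was 26.1-fold lower than mSCC-20 (interval 21.8 to 31.6). Ovol2 (chromosome 2, 144130912 to 144157816), a zinc finger factor that represses Zeb1, was scarce: 5.81 CPM in skin, 3.80 and 4.20 CPM in the papillomas, 5.32 CPM in the tumour, 7.50 CPM in mSCC-20 and 1 count in mSCC-38. That count was 248.6-fold lower than in mSCC-20 (interval 44.2 to 9860), but Ovol2 reached 10 CPM in neither culture and so lay outside the rule of size.

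The ETS factors differed more among the biopsies. Elf3 (chromosome 1, 137150151 to 137155049) had 3.06 CPM in skin, 50.9 and 50.1 CPM in the papillomas, 310.3 CPM in the tumour, 50.2 CPM in mSCC-20 and 0.121 CPM in mSCC-38. The papillomas and mSCC-20 were alike, the tumour far above them and skin far below. In mSCC-38 it had 4 counts, 416-fold lower than in mSCC-20 (interval 162 to 1528). Ehf (chromosome 2, 103103590 to 103143353) had 35.1 CPM in skin, 553 and 417 CPM in the papillomas, 310.04 CPM in the tumour, 18.9 CPM in mSCC-20 and 2.69 CPM in mSCC-38. It was thus low in both cultures, and mSCC-38 was 7.02-fold lower than mSCC-20 (interval 5.61 to 8.88).

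**Figure D2:**
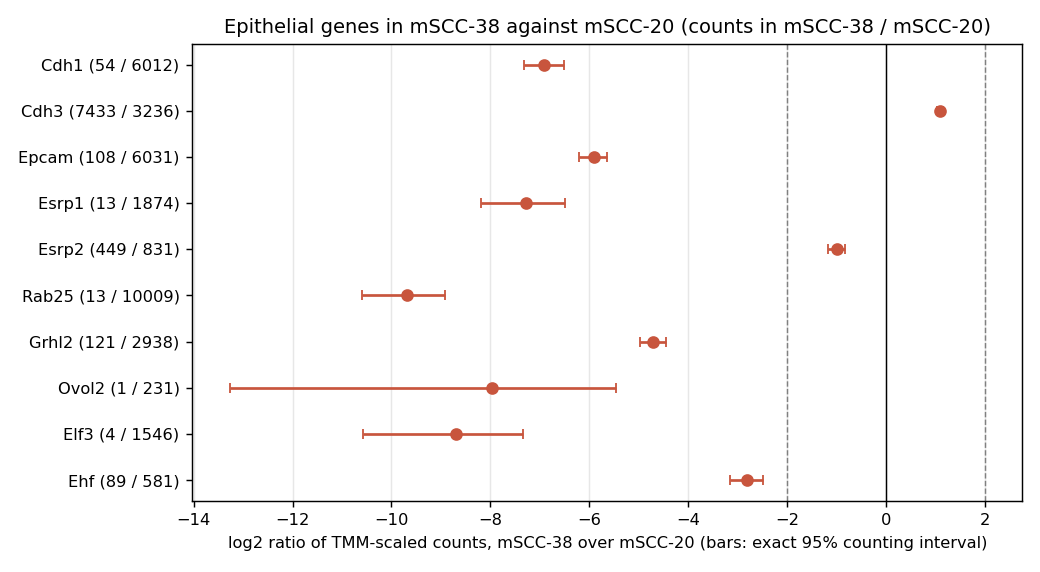
Log2 ratio of TMM-scaled counts in mSCC-38 over mSCC-20 for each gene, with exact 95% counting intervals; dashed lines mark 4-fold and the counts stand beside each name. Rab25 lies farthest to the left, with an interval that overlaps those of Elf3 and Ovol2, Esrp2 lies inside the dashed lines and Cdh3 is the only gene to the right of 0.

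Some of these lowest values are close to what genes of other tissues showed. Hair and skeletal muscle genes with at least 500 CPM in skin, 8 in number (among them Krt71 and Acta1), were still counted in mSCC-38. They stood there at a median of 0.0498% of their skin level, with an upper quartile of 0.0598% and a maximum of 0.201%, that of Acta1. In mSCC-38 Elf3 stood at 0.0389% of its highest library, under that median. Rab25 at 0.0624% and Esrp1 at 0.0793% lay above the upper quartile and under the maximum, which rests on Acta1 alone. Cdh1, at 0.208%, lay just above the maximum. The members are set against their highest library and the other genes against skin, so these percentages are not the same measure. For Elf3, Rab25 and Esrp1 the size of the ratio is thus uncertain, since counts at this level were also found for genes of other tissues. Epcam at 0.760%, Ehf at 0.486%, Grhl2 at 3.21% and Esrp2 at 7.57% of their highest library lay above that maximum; Ovol2, at 0.402%, rests on 1 count.

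Ratios of related genes within a library depend on no scaling. Per kb, Cdh1 exceeded Cdh3 by 3.38-fold in skin, 3.11- and 3.13-fold in the papillomas, 2.92-fold in the tumour and 1.68-fold in mSCC-20, and the ratio was 0.00657 (interval 0.00493 to 0.00859) in mSCC-38. Esrp1 over Esrp2 was between 1.56 and 2.25 in the first 5 libraries and 0.0200 (interval 0.0106 to 0.0345) in mSCC-38. Elf3 over Ehf followed another order: 0.192 in skin, 0.202 and 0.264 in the papillomas, 2.20 in the tumour, 5.85 in mSCC-20 and 0.0988 (interval 0.0264 to 0.262) in mSCC-38. The first 2 pairs set mSCC-38 apart from the other libraries. The ETS pair set the tumour and mSCC-20 apart from skin, papilloma and mSCC-38.

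**Figure D3:**
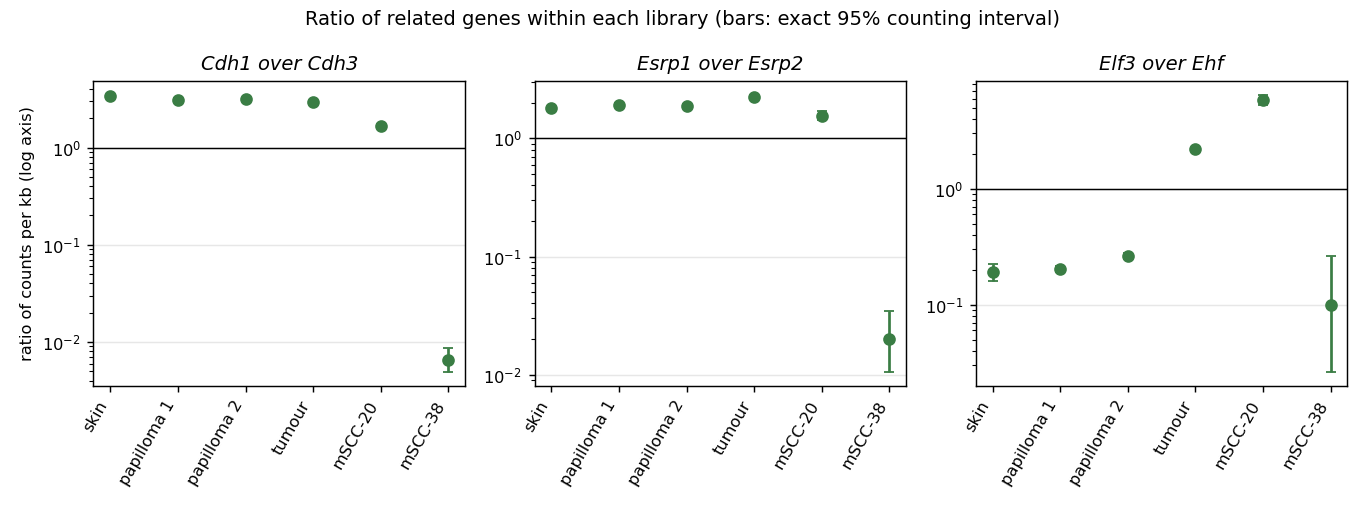
Ratio of counts per kb of 3 pairs of related genes in each library, on log axes, with exact 95% counting intervals and a line at 1. Cdh1 over Cdh3 and Esrp1 over Esrp2 lie above 1 everywhere except in mSCC-38; Elf3 over Ehf is above 1 in the tumour (2.20) and mSCC-20 (5.85) only.

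The surroundings of the programme in the cultures were read from gene lists described by counts and medians. Over the 9797 genes at 10 CPM or more, the median log2 ratio of mSCC-38 to mSCC-20 was -0.15. By the rule of size 3.28% of them were lower in mSCC-38 and 6.84% higher, and the counts below are to be read against these shares. For the 9 members at that level the median was -5.71. Of 20 other epithelial genes at that level, 13 were at least 4-fold lower in mSCC-38 and 0 higher (median -3.14). Several of them, such as Cldn7 and Prss8, reached 10 CPM in mSCC-20 only, and by that filter could not be higher in mSCC-38. The claudin gene Cldn4, of tight junctions, had the lowest ratio once 0.5 CPM was added to each side, with 402 CPM in mSCC-20 and 0.573 CPM in mSCC-38. Cldn7, another claudin gene, had 436 counts in mSCC-20 and 0 in mSCC-38. Fermt1, an integrin activator of keratinocytes, had the highest, with 44.5 and 59.6 CPM. Of 9 partners of the cadherins at the adherens junction, 1 was 4-fold lower and 0 higher (median -0.14). Beta-catenin (Ctnnb1) had 762 CPM in mSCC-20 and 1293 CPM in mSCC-38, and the nectin gene Pvrl4, the 1 lower partner, 26.6 and 1.69 CPM. Of 4 paralogs of the member transcription factors, 2 were 4-fold lower, Grhl1 (30.7 and 2.41 CPM) and Grhl3 (48.9 and 11.8 CPM), and Elf1 had the highest ratio, with 95.7 and 111 CPM.

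Keratinocyte genes were described in the same way, against the same shares of all genes. Of 10 keratinocyte markers, 1 was 4-fold lower in mSCC-38 and 1 higher (median -0.44): the desmoglein gene Dsg3, with 223 and 14.8 CPM, and the hemidesmosome integrin gene Itgb4, with 213 and 2025 CPM. Krt14, the basal keratin gene, had 6606 CPM in mSCC-20 and 3054 CPM in mSCC-38, and Trp63, the master regulator of stratified epithelium, 245 and 364 CPM. These examples were chosen after their values were seen. With counts set per summed keratinocyte marker count in place of TMM, mSCC-38 was still 77.3-fold lower than mSCC-20 for Cdh1, 534-fold for Rab25 and 1.28-fold for Esrp2, and 3.31-fold higher for Cdh3.

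Of 11 repressors and mesenchymal genes, 7 were at least 4-fold higher in mSCC-38 and 0 lower (median 3.73), where 6.84% of all genes were higher and 3.28% lower. Zeb1, a repressor of Cdh1, had 25.4 CPM in skin, 15.5 and 14.1 CPM in the papillomas, 19.4 CPM in the tumour, 1.98 CPM in mSCC-20 and 65.7 CPM in mSCC-38. Zeb2 had 0.357 CPM in mSCC-20 and 72.2 CPM in mSCC-38, a ratio of 202 (interval 113 to 406), and Twist1 4.22 and 62.1 CPM. Snai2, a Snail family repressor that basal keratinocytes also carry, had the lowest ratio of the list, with 80.9 and 70.9 CPM. Vim, the mesenchymal filament gene, had the highest, with 50 counts in mSCC-20 and 132228 in mSCC-38, and N-cadherin (Cdh2, chosen after its values were seen) had 1 count in mSCC-20 and 690 in mSCC-38. Fibroblasts carry Vim and Zeb2 too, and 4 of the 7 fibroblast markers were also at least 4-fold higher in mSCC-38 (median of these 4, 3.98). These 4 reached 10 CPM in mSCC-38 only, so by that filter none of them could be lower there. Col1a1 had 2.18 CPM in mSCC-20 and 123 CPM in mSCC-38, Pdgfrb 0.779 and 21.1 CPM, Col3a1 1.49 and 28.9 CPM, and Pdgfra 5.49 and 33.4 CPM. The other 3 were low in both cultures, Col1a2 at 2.18 and 2.78 CPM, Dcn at 0.552 and 3.14 CPM, and Lum at 0.130 and 0.181 CPM. The part of other cells in the culture values was not tested.

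**Figure D4:**
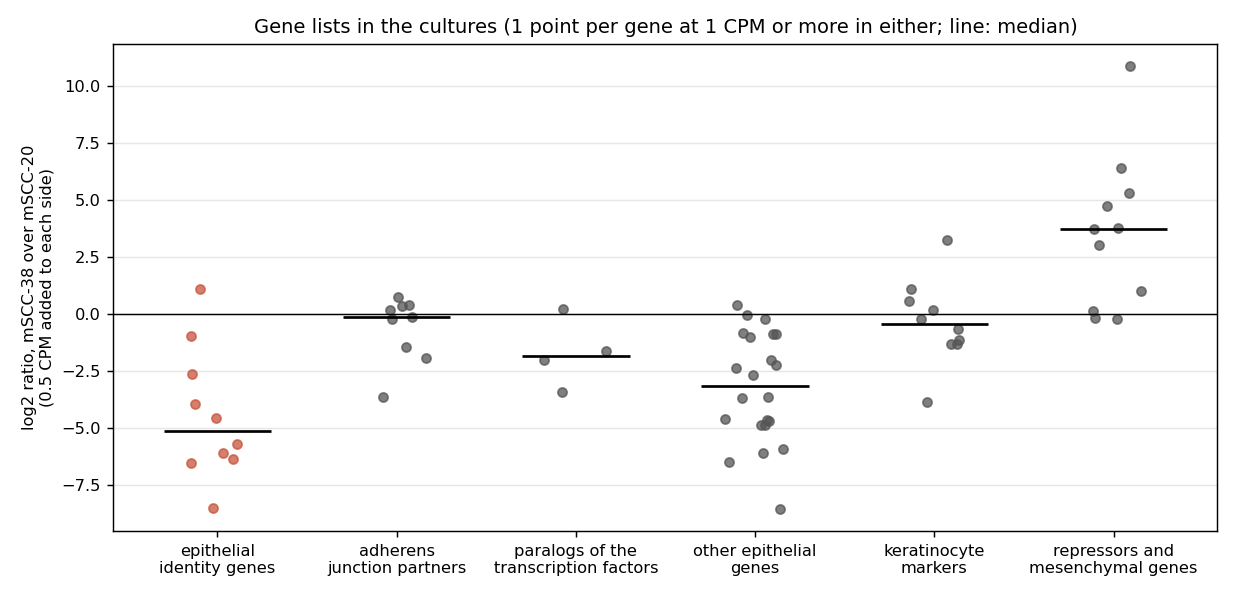
Log2 ratio of mSCC-38 over mSCC-20 (0.5 CPM added to each side), 1 point per gene with at least 1 CPM in either culture, by gene list, with a line at each median. The epithelial identity genes and the other epithelial genes lie mostly under 0, junction partners and keratinocyte markers around 0, and 7 of 11 repressors and mesenchymal genes above 2.

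Sequence upstream of the members was available for 4 of them, in the RefSeq table of GRCm38.p6, as 250 bases before to 50 bases after a gene start. The letters CAGGTG (or CACCTG on the other strand) are the E-box form bound by Zeb and Snail proteins, and 20.2% of 32851 promoter windows in the table hold them. The windows of Epcam, Elf3 and Rab25 hold them and that of Ovol2, whose level also differed between the cultures, does not. These 3 are shown, 5′ to 3′ on the gene's strand, because they hold the letters searched for, so they were chosen by the motif and say nothing of how often it goes with a low level. Capitals mark each E-box and, in Rab25, a grainyhead-type match to AACCNGTT (or AACNGGTT), which 2.09% of windows hold. An ETS-type motif, CCGGAAGT (or ACTTCCGG), which 3.89% of windows hold, was searched for as well and had 0 matches in each of the 4 windows.
Epcam (chr17:87635729-87636028, plus strand): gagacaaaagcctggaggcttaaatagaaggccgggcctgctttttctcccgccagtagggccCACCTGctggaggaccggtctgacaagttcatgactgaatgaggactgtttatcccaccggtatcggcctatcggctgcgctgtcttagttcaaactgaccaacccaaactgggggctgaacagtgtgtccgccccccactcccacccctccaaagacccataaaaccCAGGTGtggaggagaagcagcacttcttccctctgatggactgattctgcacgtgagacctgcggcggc
Elf3 (chr1:135258423-135258722, minus strand): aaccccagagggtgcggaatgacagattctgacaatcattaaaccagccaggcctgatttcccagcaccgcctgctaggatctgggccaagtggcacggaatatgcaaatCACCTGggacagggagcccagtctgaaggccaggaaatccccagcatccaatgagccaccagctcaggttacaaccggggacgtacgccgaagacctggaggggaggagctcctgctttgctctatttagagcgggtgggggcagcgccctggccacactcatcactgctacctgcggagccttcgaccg
Rab25 (chr3:88548230-88548529, minus strand): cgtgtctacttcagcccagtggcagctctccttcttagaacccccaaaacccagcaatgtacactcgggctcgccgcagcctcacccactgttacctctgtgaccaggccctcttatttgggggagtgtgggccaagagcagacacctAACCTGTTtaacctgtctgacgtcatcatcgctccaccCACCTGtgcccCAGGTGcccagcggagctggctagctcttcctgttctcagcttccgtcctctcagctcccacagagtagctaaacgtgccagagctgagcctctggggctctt
The Epcam E-boxes begin at 187 and 19 bases before the start and the Rab25 E-boxes at 64 and 53 bases before it, while the Elf3 E-box begins 140 bases before it. Such matches describe the letters only, and whether Zeb or Snail proteins bind there in these cells was not tested.

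In the biopsies, edgeR's quasi-likelihood test over 16353 genes set papilloma against healthy skin. Of the 10 members, 4 rose in papilloma and 0 fell; of all genes 12.0% rose and 14.1% fell, 26.0% in all. The ETS factors rose most. Elf3 stood at 50.5 ± 0.530 CPM in papilloma (SD, n = 2) against 3.06 CPM in skin, and edgeR put the log2 fold change at 4.05 ± 0.21 (SE), with an adjusted p of 0.00396. Ehf stood at 485 ± 95.8 CPM against 35.1 CPM, with an edgeR estimate of 3.79 ± 0.32 (adjusted p = 0.00658). For Rab25 the estimate was 1.45 ± 0.25 and the edgeR adjusted p 0.0212. For Cdh3 it was 0.86 ± 0.20, close to the threshold (edgeR adjusted p = 0.0400).

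The other 6 genes did not pass. Their log2 fold changes were 0.74 ± 0.25 for Cdh1 (edgeR adjusted p = 0.0845), 0.56 ± 0.23 for Esrp1, 0.49 ± 0.19 for Esrp2, 0.14 ± 0.23 for Epcam, 0.05 ± 0.18 for Grhl2 and -0.53 ± 0.30 for Ovol2. DESeq2's Wald test called 6 members, Cdh1 and Esrp1 in addition, where it called 26.5% of all genes, and the call of Cdh3 was lost with DESeq2's size factors (edgeR adjusted p = 0.0503) and with total counts (0.133). Total-count scaling moved the median log2 ratio of all genes at 10 CPM or more from 0.07 to -0.37 and turned the signs of Epcam and Grhl2 negative. The keratinocyte markers moved with this comparison, their summed level being higher in both papillomas and 5 of 10 (Krt14, Sfn, Dsg3, Itgb4 and Lamb3) rising by edgeR. Markers of other cells of whole skin moved with it as well. Skeletal muscle markers summed to 8501 CPM in skin and to 1593 and 969 CPM in the papillomas, 5 of 6 falling by edgeR. Of 5 adipocyte markers 3 fell and 0 rose by edgeR, but their sum was 525 CPM in skin and 1260 and 634 CPM in the papillomas. Most of that sum was Fabp4, at 349 CPM in skin and 1249 and 603 CPM in the papillomas. Hair follicle markers summed to 16570 CPM in skin, 62.7 CPM in papilloma 1 and 4983 CPM in papilloma 2, so the papillomas stood far apart in them. The part of these cells in the members' changes was not tested. Set per summed count of the keratinocyte markers, 8 of the 10 members were lower in papilloma. Cdh3 at -0.94 and Rab25 at -0.35 on the log2 scale were among them. On that scale Elf3 at 2.26 and Ehf at 1.98 remained higher. Krt14 alone made up 13.9% of the marker counts in skin and 46.0% and 43.7% in the papillomas; with the geometric mean of the markers, where each gene has the same weight, 8 members were lower too, with Elf3 at 2.52 and Ehf at 2.24. The test takes skin to vary as the 2 papillomas do, and p-values measure the spread between these samples only, which may be technical in part.

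The tumour was compared with the papillomas in the same fit, so both comparisons share the papilloma libraries. Of the 10 genes, 1 was higher in the tumour and 2 lower; of all genes 11.9% were higher and 10.6% lower, 22.5% in all. Elf3 was higher again in the tumour, with a log2 fold change over papilloma of 2.61 ± 0.16 and an edgeR adjusted p of 0.00259. Rab25 fell by 1.36 ± 0.25 log2 units (edgeR adjusted p = 0.0243), from 582 ± 66.3 CPM in papilloma (SD, n = 2) to 228 CPM, near the level of skin. Esrp2 fell by 0.94 ± 0.19 log2 units (edgeR adjusted p = 0.0303), from 170 ± 12.9 to 88.7 CPM. Its paralog Esrp1 was at -0.69 ± 0.23 and did not pass by edgeR (adjusted p = 0.0977), although it did by DESeq2's Wald test (adjusted p = 0.0105), which called 4 members and 23.4% of all genes. The changes of Cdh1 (0.12 ± 0.24), Cdh3 (0.22 ± 0.19), Grhl2 (0.29 ± 0.18), Ovol2 (0.40 ± 0.31), Epcam (0.55 ± 0.23) and Ehf (-0.65 ± 0.27) did not pass either.

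**Figure D5:**
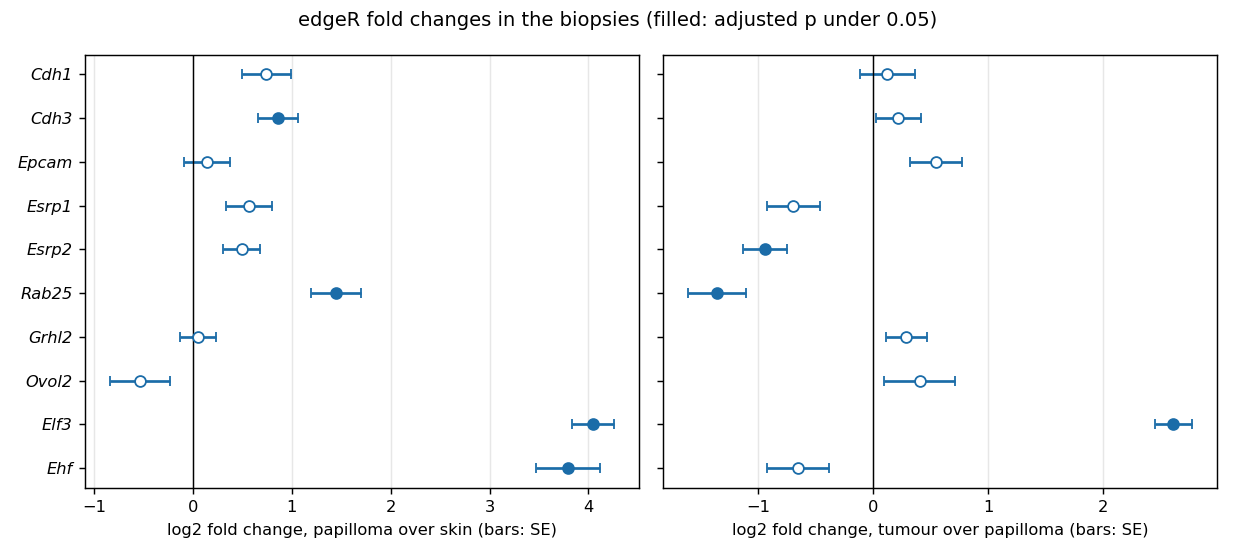
edgeR log2 fold changes of papilloma over skin (left) and tumour over papilloma (right), with SE bars and filled points for an adjusted p under 0.05. Elf3 is filled and above 2 in both panels, and Rab25 is filled with opposite signs; the panels share the papilloma libraries.

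Against healthy skin, 2 of 9 members with at least 10 CPM were at least 4-fold higher in the tumour by the rule of size and 0 lower, where 5.23% of 11114 genes were higher and 9.11% lower. These were Elf3, 101.5-fold higher (interval 86.5 to 120), and Ehf, 8.83-fold higher (interval 8.40 to 9.29). Markers of glandular and simple epithelium moved with Elf3 in the tumour: all 6 rose against papilloma by edgeR, and their sum was 14.9 CPM in skin, 23.5 and 13.1 CPM in the papillomas and 2858 CPM in the tumour. Krt19, a keratin gene of simple epithelia, had a log2 fold change of 7.62 ± 0.22 over papilloma, with an edgeR adjusted p of 0.00205. Of the tumour's sum Ltf, the lactoferrin gene, made up 2023 CPM. In mSCC-20, where Elf3 stood at the papilloma level, that sum was 576 CPM, but it came from Krt8 (198 CPM), Krt18 (305 CPM) and Krt19 (70.8 CPM), with Krt7, Ltf and Muc1 at 1.56, 1.17 and 0.292 CPM. The part of such cells in the Elf3 difference was not tested.

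Genes of the same lists changed in the biopsies in both directions, at shares to be read against the 26.0% of all genes called in papilloma and the 22.5% called in the tumour. Among junction partners, Jup (plakoglobin) and Pvrl1 rose in papilloma, 2 of 10, and 0 fell; Vcl, which encodes the actin linker vinculin, was the only one of 10 to change in the tumour, and rose. Of 6 paralogs, Grhl3, Ovol1 and Spdef rose in papilloma and 0 fell, while in the tumour Grhl1, Ovol1 and Spdef fell and 0 rose. Spdef was scarce throughout, with 3 counts in skin, 47 and 45 in the papillomas and 14 in the tumour. Ovol1, a zinc finger factor of differentiating keratinocytes, rose by 1.42 ± 0.35 log2 units in papilloma (edgeR adjusted p = 0.0441) and fell by 2.49 ± 0.37 in the tumour against papilloma (0.0143). Of 24 other epithelial genes, 3 rose in papilloma (Prss8, Myo5b and Mal2) and 1 fell (Krt8). Krt8 was low there, with 64 counts in skin and 10 and 17 in the papillomas. In the tumour 7 rose (Cldn4, Cldn7, Krt8, Krt18, Krt19, Marveld3 and Fermt1) and 3 fell (Prss8, Ap1m2 and Prom2). Cldn7 had a log2 fold change of 4.89 ± 0.28 there (edgeR adjusted p = 0.00227). Zeb1 and Zeb2 fell in papilloma, 2 of 11 repressors and mesenchymal genes, and 0 rose. In the tumour Snai2, Zeb2, Twist1 and Fn1 rose and 0 fell, Snai2 by 1.90 ± 0.18 (edgeR adjusted p = 0.00534). Immune markers moved with them: of 5 tested, Ptprc, the pan-leukocyte gene, and Cd14, of monocytes, rose in the tumour and 0 fell, Ptprc by 1.60 log2 units (edgeR adjusted p = 0.00448). Of 7 fibroblast markers 0 rose in the tumour against papilloma by edgeR and 2 fell, Dcn and Lum. The part of immune and stromal cells in the repressor values was not tested.

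The non-tumorigenic culture mSCC-20 had all 10 genes above the level allowed by a count of 0 (0.0974 CPM). By the rule of size 4 of 9 members were lower in mSCC-20 than in the tumour, where 14.4% of 10503 genes were lower and 6.05% higher. Ehf was 16.4-fold lower (interval 15.1 to 17.9), Elf3 6.18-fold, Esrp1 4.76-fold and Cdh1 4.02-fold. Rab25 was 1.43-fold higher in mSCC-20 (interval 1.39 to 1.47), Ovol2 1.41-fold higher (interval 1.17 to 1.70), and Grhl2 stood at 0.838 of the tumour level. In mSCC-38, 8 of 9 members were lower than in the tumour, all but Cdh3, where 10.4% of 10390 genes were lower and 2.85% higher. These ratios set a culture beside a whole biopsy, whose fibroblast and endothelial markers are given above.

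The members shared a profile to different degrees. Over the 6 libraries, Pearson's r was taken between a gene's log2 (CPM + 0.5) and the mean of the other 9. It was highest for Cdh1 (0.992), Epcam (0.976), Esrp1 (0.969) and Grhl2 (0.959), and lowest for Elf3 (0.799) and Cdh3 (-0.084). These r are descriptions over libraries that share 1 scaling. The mean centred log2 profile of the members was -4.40 in mSCC-38 and from 0.0085 to 1.43 elsewhere, so each r rests in large part on that 1 library. Where neighbouring groups in the order of levels differed by no more than the papillomas did for that gene, the order was not resolved. This held for skin and papilloma in Epcam and for skin and tumour in Esrp1, Rab25 and Ovol2. It also held for papilloma, skin and mSCC-20 in Grhl2, and for papilloma and mSCC-20 in Elf3. The ratio of 2 papillomas does not measure the spread of skin, tumour or cultures, so a larger difference does not settle the order either. Cdh1 in the tumour was 1.09-fold papilloma, against 1.07-fold between the papillomas, and edgeR did not call it.

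Genes with the most similar pattern were sought among 10249 candidates with a mean of at least 10 CPM, by the root mean square distance of centred log2 (CPM + 0.5) values from the members' mean profile over the 6 libraries. The closest was S100a14, a calcium-binding protein gene of epithelia, at a distance of 0.201, with 421 CPM in skin, 735 and 613 CPM in the papillomas, 863 CPM in the tumour, 287 CPM in mSCC-20 and 11.0 CPM in mSCC-38. Next came Crb3, an apical polarity gene with 0 counts in mSCC-38, Lrrc32, 1810019J16Rik, Grb7, the tight junction gene Ocln, Mpzl2 and Il17re, at distances from 0.286 to 0.510. Ranking by Pearson's r shared 4 of these 8 genes, so the list depends on the measure.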

How the data were processed

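Per the labels, total RNA came from a Qiazol and miRNeasy extraction, and a NEBNext small RNA kit for SOLiD sequencing gave the libraries. The authors deposited 1 table of 23726 gene models with a raw count per library, an RPKM value per library and a gene length; the submitters' processing notes name the build mm9. No aligner or counter, and no statement on strand, is given in the sources used here. The deposited RPKM values, which imply totals of 99.2% to 99.6% of the summed counts, were used only as a check. Counts were scaled by TMM (CPM per kb used the deposited length). The 4 biopsies were tested with edgeR 4.0.16 (limma 3.58.1, R 4.3.3; quasi-likelihood, default filter, 3 groups, 1 residual degree of freedom, common dispersion 0.0773) at a Benjamini-Hochberg adjusted p under 0.05 over 16353 genes; the SE was worked back from edgeR's F statistic. DESeq2 1.42.0 was an alternative. On simulated data of 16353 genes, edgeR recovered 67% of genes changed 4-fold and 91% of those changed 16-fold in the papilloma and skin comparison, with 16 of 174 calls false; in the tumour and papilloma comparison it recovered 67% and 96%, with 6 of 169 calls false. In the simulated data unchanged genes had the same mean in every library, and far fewer genes changed than the 26.0% and 22.5% called in the real data. The simulated rates may thus not hold for the real comparisons. The 16 false calls of 174 are a larger share than the 0.05 that the threshold aims at. Single libraries were compared by size, with 0.5 CPM added. A count of 0 allows 3 counts, 0.0604 to 0.141 CPM.

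All 10 members were named. From the other lists, the genes with the highest and lowest log2 ratio between cultures (0.5 CPM added) were named, with examples among those called in biopsies, and the 8 genes of most similar pattern. Single marker genes of other cell types were named after their values were seen. The members and lists were chosen with earlier results of these data known.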

Additional observations from a re-analysis of the deposited data

How the results depend on the processing

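The number of members called was 3 to 6 for papilloma against skin and 3 to 4 for tumour against papilloma over DESeq2's test and size factors, total counts, no filter and a fit of all 6 libraries. By the rule of size, 2 to 3 members passed for tumour against skin, all higher, and 7 to 8 for mSCC-38 against mSCC-20. These ranges cover other scalings, pseudocounts of 0.1 and 1 CPM, a 2-fold rule and a minimum of 1 CPM. In the cultures the 2-fold rule gave 7 lower and 1 higher (Cdh3), and the minimum of 1 CPM gave 8 lower. Every other setting gave 7 lower. The share of all genes is given here for the main rule only. With total counts, log2 fold changes of Epcam and Grhl2 in papilloma turned to -0.28 and -0.37, neither of them called. Set per geometric mean and per summed count of keratinocyte markers, both chosen after seeing the data, the Rab25 log2 ratio in papilloma turned to -0.095 and -0.35. On the same scales Cdh3 turned to -0.68 and -0.94, and Cdh1 to -0.80 and -1.05. By each of these scales 8 of the 10 members were lower in papilloma, and Elf3 and Ehf remained higher. Leaving out 1 papilloma leaves no residual degree of freedom, so log2 ratios with 0.5 CPM added were taken, without a test: in papilloma against skin they ran from 3.83 to 3.85 for Elf3, 3.55 to 3.96 for Ehf, 1.32 to 1.56 for Rab25 and 0.80 to 0.90 for Cdh3, and in tumour against papilloma from 2.60 to 2.62 for Elf3, -1.46 to -1.23 for Rab25 and -1.01 to -0.85 for Esrp2. No paired analysis was possible because papilloma is the only group with more than 1 library. Depth limits Ovol2 and Elf3 in mSCC-38, at 1 and 4 counts.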
